A study of Homo sapiens with 6 samples.

Results

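The RNAs of 5 DNA repair genes were followed in an RNA immunoprecipitation of PD-L1. ERCC4 and ERCC5 act in nucleotide excision repair, NEIL3 and POLB in base excision repair, and PMS1 belongs to a mismatch repair family. The members were taken by gene name from the authors' table of PD-L1 binding RNAs, and all 5 were found among its 3152 RNAs. All 5 are also on the authors' list of DNA damage genes, of which 204 entries matched the table by symbol.

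The PD-L1 group holds 3 precipitates of MDA-MB-231, a human breast cancer line of the triple-negative type, made with an antibody against PD-L1, the membrane ligand of the immune receptor PD-1. The control group holds 3 precipitates of the same line made with an IgG isotype antibody, which measures RNA that sticks to antibody and beads. Both groups were crosslinked with formaldehyde and sonicated, and no treatment or genotype differs between them, per the labels. The labels do not say whether repeats are separate cultures, so the p-values cover the variation among these 6 libraries alone, and that variation may be technical.

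Nucleotide excision repair removes bulky lesions by cutting the damaged strand on both sides and refilling the gap. Base excision repair removes a small damaged base, opens the backbone and fills a short gap. Mismatch repair corrects replication errors, with MutS proteins that find the mismatch and MutL proteins that pass the signal on.

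Each value is a score in which the authors added up all peaks given to a gene in a library, and 0 stands for a gene without any scored peak. Entry to the table required a PD-L1 value 5 or more times that of IgG in these same libraries, so the direction of every difference was set by that selection. The sizes and p-values come from the libraries used for the selection too. Adjusted p-values are therefore no independent evidence of enrichment and do not control the share of false calls. Summed over the table, scores came to 123921 to 217732 in the PD-L1 libraries, lowest in repeat 3, and 8353 to 19288 in the IgG libraries, lowest in repeat 1. Such a sum over chosen RNAs is no measure of sequencing depth, which is unknown. PD-L1 repeat 3 stood apart, with a Spearman correlation across RNAs of 0.746 and 0.741 with repeats 1 and 2, against 0.969 between repeats 1 and 2. The cell label could not be checked on markers in a table selected for enrichment. It held 1 of 10 mesenchymal breast cancer cell markers (ZEB1), 1 of 12 epithelial markers (CLDN4) and 0 of 9 immune cell markers.

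The first comparison asks how far each repair RNA stood above the isotype control. Of the 5 RNAs, 4 were higher with PD-L1 in limma with Benjamini-Hochberg adjustment over the table, against 97.7% of all listed RNAs, and POLB did not pass. Scores in all 3 PD-L1 libraries exceeded those in all 3 IgG libraries for the same 4 RNAs, a separation seen in 95.9% of the table. Both shares are near the background of a table chosen for this direction. The median log2 difference was 3.85 over the 5 RNAs and 3.42 over the table. All log2 differences were taken after adding 1 to each score. The differences of low-scoring RNAs, and of RNAs at 0 with IgG, depend on this choice, and their true size is unknown. An exact permutation test on 3 against 3 libraries cannot give a 2-sided p below 0.1, which was its value for ERCC4, ERCC5, NEIL3 and PMS1, while POLB had 0.2.

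**Figure D1:**
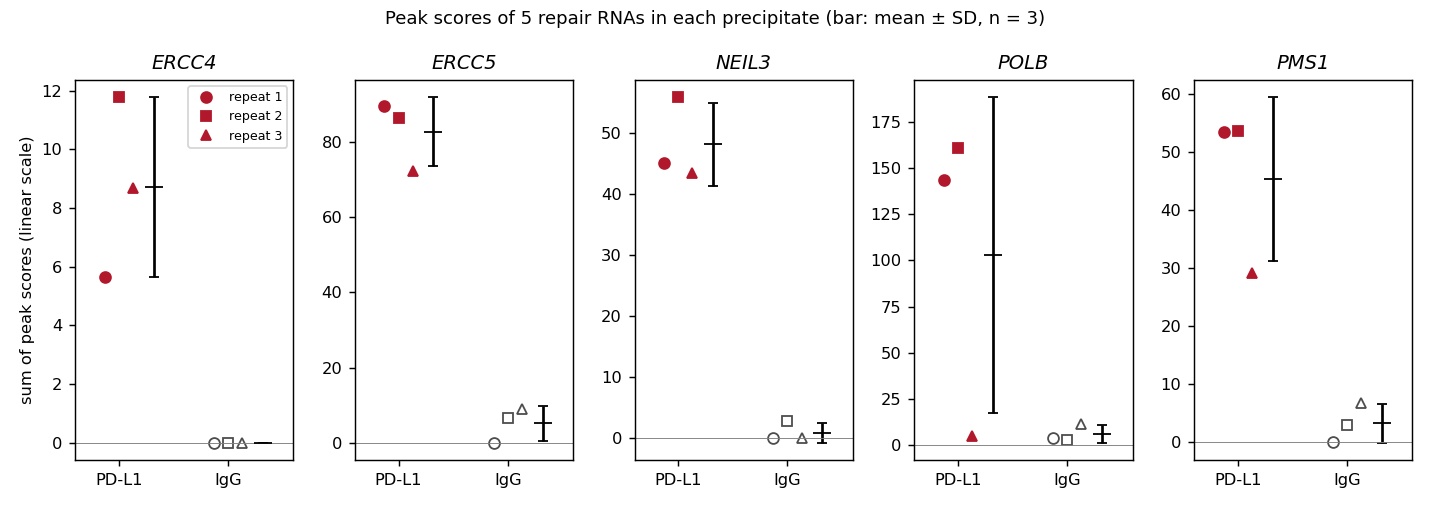
Sum of peak scores (linear scale, a separate axis for each gene) in the PD-L1 libraries (filled) and the IgG libraries (open), with the shape giving the repeat number and the bar the mean ± SD (n = 3 per group). The PD-L1 scores lie above the IgG scores for every gene except POLB, where PD-L1 repeat 3 (5.13) lies below IgG repeat 3 (11.6).

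ERCC4, also called XPF, is the nuclease that with its partner ERCC1 cuts the damaged strand on one side of the lesion and also acts on DNA crosslinks. Its scores were 5.65, 11.8 and 8.68 in PD-L1 repeats 1 to 3, against 0 in all 3 IgG libraries. ERCC4 thus had low PD-L1 scores and no scored peak with IgG, a form of absence shared by 31.7% of the table. Its mean PD-L1 score of 8.71 ± 3.07 (SD, n = 3) exceeded that of 9.77% of listed RNAs. The smallest scores above 0 in the IgG libraries were 2.06 to 2.42, so a weak ERCC4 peak below that level may not have been listed. The log2 difference was 3.23 ± 0.34 (SE; adjusted p = 0.000299 in limma). With every IgG score at 0, this SE and p-value include no measured spread of the control and may be too small. Against a control of 0 this difference depends on the pseudocount, being 6.40 with a pseudocount of 0.1 and 1.43 with 5, and no fold is given. An annotated antisense gene and a processed pseudogene overlap ERCC4 on the opposite strand, and whether the scores used the strand is not given in the sources used here.

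ERCC5, also called XPG, is the nuclease that makes the other cut. Its scores were 89.6, 86.6 and 72.3 in PD-L1 repeats 1 to 3, against 0, 6.43 and 9.01 in IgG repeats 1 to 3. The groups did not overlap, and the lowest PD-L1 score belonged to repeat 3. The mean was 82.8 ± 9.25 with PD-L1 and 5.15 ± 4.64 with IgG (SD, n = 3 each), a ratio of 16.1. That ratio was 10.7 without IgG repeat 1 and 25.8 without IgG repeat 3. The log2 difference was 4.31 ± 0.89 (SE; adjusted p = 0.00416 in limma).

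The table also holds BIVM-ERCC5, a readthrough gene that joins the neighbouring gene BIVM to ERCC5. In GENCODE 29 its main transcript shares 14 of the 15 exons of the main ERCC5 transcript, which is 70.1% of ERCC5's 5082 bases and 63.3% of the 5632 bases of the readthrough. The coding sequence at the point where both become one is shown because it marks where reads stop telling the 2 RNAs apart. Of these 2 transcripts, the bases in lower case belong to one and those in capitals to both. BIVM itself overlaps the readthrough on the same strand, and whether its transcripts hold the lower-case bases was not tested. The ERCC5 bases come from chr13:102846325-102846354, the BIVM-ERCC5 bases from chr13:102839774-102839803 and the shared bases from chr13:102852118-102852147 (GRCh38, plus strand, GENCODE 29).
ERCC5: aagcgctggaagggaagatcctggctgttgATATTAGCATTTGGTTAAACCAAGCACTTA
BIVM-ERCC5: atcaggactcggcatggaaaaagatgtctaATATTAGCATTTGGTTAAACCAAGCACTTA

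BIVM-ERCC5 scored 70.5, 68.3 and 83.9 in PD-L1 repeats 1 to 3, against 0, 2.83 and 6.69 in IgG repeats 1 to 3. It had a log2 difference of 4.60 ± 0.75 (SE) and an adjusted p of 0.00168 in limma. The 2 rows were not copies of each other, since ERCC5 scored higher in PD-L1 repeats 1 and 2 and lower in repeat 3. How peaks in the shared exons were divided is not given in the sources used here, so the levels of ERCC5 and BIVM-ERCC5 are uncertain as separate values. Both are on the authors' list of DNA damage genes as separate entries.

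NEIL3 is a DNA glycosylase that removes oxidised bases and can open crosslinks between DNA strands. Its scores were 45.0, 55.9 and 43.5 in PD-L1 repeats 1 to 3, against 0, 2.83 and 0 in IgG repeats 1 to 3. The 3 PD-L1 scores were close to each other and 1 IgG library held a scored peak. The mean was 48.1 ± 6.78 with PD-L1 and 0.943 ± 1.63 with IgG (SD, n = 3 each), a ratio of 51.0. This ratio exceeded that of 95.2% of the 2152 RNAs with a score above 0 in any IgG library. The 1000 RNAs at 0 in all IgG libraries have no ratio and are outside this rank. NEIL3's ratio rests on the score of 2.83 in IgG repeat 2, near the smallest score above 0 in that library, 2.06. The ratio was 34.0 without IgG repeat 1 or without IgG repeat 3, and without IgG repeat 2 NEIL3 was at 0 with IgG and had no ratio. NEIL3's log2 difference of 4.96 ± 0.59 (SE; adjusted p = 0.000492 in limma) exceeded that of 89.8% of the table. NEIL3 too has an annotated antisense gene on the opposite strand.

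POLB encodes DNA polymerase beta, which trims and fills the gap left by base excision. Its scores were 143, 161 and 5.13 in PD-L1 repeats 1 to 3, against 3.93, 3.09 and 11.6 in IgG repeats 1 to 3. It was the only 1 of the 5 RNAs with a scored peak in every IgG library, and its groups overlapped through PD-L1 repeat 3. The mean was 103 ± 85.3 with PD-L1 and 6.20 ± 4.68 with IgG (SD, n = 3 each), a ratio of 16.6. This ratio was 24.5 without PD-L1 repeat 3, 0.827 for PD-L1 repeat 3 alone and 29.4 without IgG repeat 3. The log2 difference of 3.05 ± 1.35 (SE; 95% confidence interval from -0.25 to 6.34) did not pass (adjusted p = 0.0652 in limma). Without PD-L1 repeat 3 it was 4.59 ± 0.58 and passed (adjusted p = 0.00341 in limma), as did 90.6% of the table. A processed pseudogene is annotated on the opposite strand of POLB.

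PMS1 encodes a MutL homologue, and its own part in human mismatch repair is less clear than that of PMS2. Its scores were 53.3, 53.6 and 29 in PD-L1 repeats 1 to 3, against 0, 2.83 and 6.69 in IgG repeats 1 to 3. The groups did not overlap, and PD-L1 repeat 3 was again the lowest of its group. The mean was 45.3 ± 14.1 with PD-L1 and 3.17 ± 3.36 with IgG (SD, n = 3 each), a ratio of 14.3. That ratio was 9.52 without IgG repeat 1 and 32.01 without IgG repeat 3. The log2 difference was 3.85 ± 0.78 (SE; adjusted p = 0.00392 in limma).

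The next comparison concerns how the 5 RNAs varied between the PD-L1 precipitates. Relative to the mean of repeats 1 and 2, repeat 3 held 0.995 of the score for ERCC4, 0.861 for NEIL3, 0.821 for ERCC5, 0.543 for PMS1 and 0.0337 for POLB. The median over the 3145 RNAs scored in repeat 1 or 2 was 0.715, so 3 of the RNAs lay above it and 2 below. POLB had the lowest share of the 204 matched RNAs on the authors' DNA damage list, and 2 RNAs in the whole table had a lower one. Its score of 5.13 in repeat 3 was near the smallest score listed in that library, 3.72. ERCC4's repeat 3 score lay between those of repeats 1 and 2, and for the other 4 RNAs repeat 3 was the lowest PD-L1 library. The same held for 63.8% of all listed RNAs and 73.5% of the matched RNAs on the authors' DNA damage list. With 1 library on one side, this share has no test, and the part of the precipitate in POLB's low score was not tested.

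**Figure D2:**
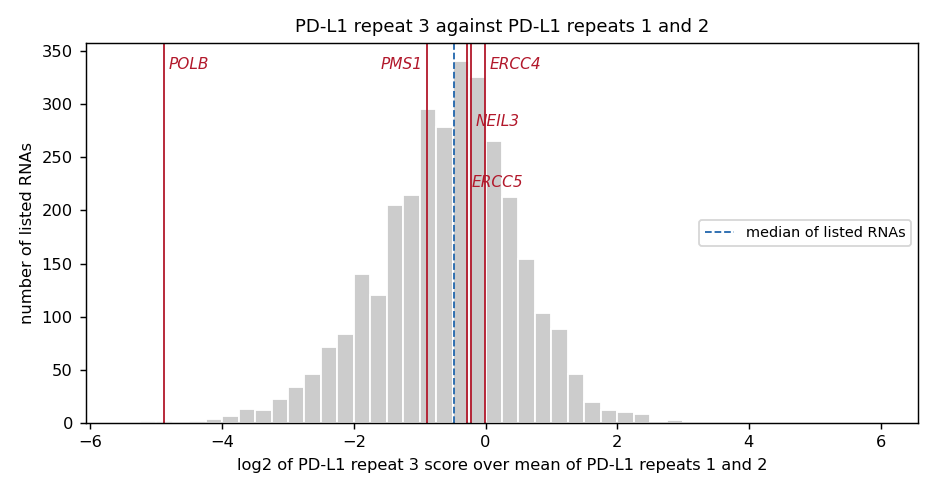
Histogram over listed RNAs of the log2 ratio of the PD-L1 repeat 3 score to the mean of PD-L1 repeats 1 and 2, with a red line for each of the 5 RNAs and a dashed line at the median. POLB (ratio 0.0337) lies in the far left tail, while ERCC4, NEIL3, ERCC5 and PMS1 (0.995 to 0.543) lie in the body of the distribution.

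Levels were set side by side per kilobase of the main GENCODE 29 transcript. The mean PD-L1 score per kilobase was 77.6 ± 64.2 for POLB, 20.0 ± 2.81 for NEIL3, 16.3 ± 1.82 for ERCC5, 14.05 ± 4.38 for PMS1 and 1.29 ± 0.454 for ERCC4 (SD, n = 3). The range over the 3 PD-L1 libraries was 3.86 to 121 for POLB and overlapped those of NEIL3 (18.0 to 23.2), ERCC5 (14.2 to 17.6) and PMS1 (8.99 to 16.6). NEIL3 lay above ERCC5 without overlap, ERCC5 and PMS1 overlapped, and ERCC4 (0.836 to 1.74) lay below all others. The order of NEIL3 and ERCC5 is uncertain, because exons shared with BIVM-ERCC5 make the separate level of ERCC5 uncertain. Peak positions are not stated, so division by the length of the spliced transcript may not apply. The same quantity with IgG was 4.67 for POLB, 1.01 for ERCC5, 0.984 for PMS1, 0.392 for NEIL3 and 0 for ERCC4. POLB has the shortest of these transcripts, at 1329 bases in 14 exons, and ERCC4 the longest, at 6758 bases in 11 exons, while the median over the 3092 listed RNAs matched to GENCODE was 4004 bases and 12 exons. Across these RNAs, which share libraries, the Spearman correlation between transcript length and mean PD-L1 score was 0.196. ERCC4's score per kilobase exceeded that of 3.46% of the matched RNAs and POLB's that of 97.5%. Transcript GC content was 37.1% for PMS1, 39.9% for ERCC4, 41.4% for NEIL3, 44.2% for POLB and 46.8% for ERCC5, around the table's median of 43.8%.

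The other genes of the 3 pathways show where the 5 RNAs stand. Of 27 nucleotide excision repair genes 9 were in the table and all 9 were higher, with a median log2 difference of 2.80. Of 24 base excision and strand break repair genes 7 were in the table, 6 were higher and POLB did not pass, with a median of 3.05. Of 16 mismatch repair genes 6 were in the table and all 6 were higher, with a median of 3.69. None of the 22 was lower. Counts are from limma with Benjamini-Hochberg adjustment, and 97.7% of all listed RNAs were higher. RNAs below the authors' criterion were not analysed here, so the number of genes in the table is no test of enrichment.

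In nucleotide excision repair, ERCC8, a subunit of the ubiquitin ligase that acts where transcription stalls, scored 22.6, 30.5 and 9.56 in the PD-L1 libraries, against 0 in all IgG libraries (log2 difference 4.31). The log2 difference was 2.80 for the damage sensor XPC and 2.73 for UVSSA, a partner of stalled RNA polymerase. Of the repair and transcription complex TFIIH, the core subunits GTF2H1 (3.24) and GTF2H2 (2.71) and the kinase module subunits CCNH (2.72) and MNAT1 (2.41) were listed, with log2 differences in parentheses. UVSSA, GTF2H1 and CCNH did not pass without PD-L1 repeat 1 or without PD-L1 repeat 2, and 6 RNAs of this list were then higher. Calls were lost over the table too, with 87.8% of all listed RNAs higher without repeat 1 and 86.6% without repeat 2. GTF2H2 has near-identical copies in the genome and its score is uncertain. ERCC4 and GTF2H2 had the lowest mean PD-L1 scores of these RNAs, and GTF2H2 was at 3.23, 8.16 and 6.20 with PD-L1. MNAT1 had 79.9, 73.6 and 87.4 in the PD-L1 libraries, against 13.3, 12.4 and 17.8 in the IgG libraries.

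In base excision repair, NEIL3 was followed by MBD4, a glycosylase of mispaired thymine and uracil (log2 difference 3.81, at 0 in all IgG libraries), and POLL, a polymerase of the same family as POLB (3.38). POLL scored 91.2, 99.3 and 19.1 with PD-L1, against 0, 13.1 and 10.6 with IgG, and like POLB had its lowest PD-L1 score in repeat 3. Leaving out PD-L1 repeat 1 or repeat 2 ended its call (3.04 and 2.98, adjusted p = 0.114 and 0.117 in limma). The log2 difference was 2.93 for the scaffold protein RNA XRCC1, 2.02 for its partner ligase LIG3 and 2.10 for TDP1, which clears blocked DNA ends.

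In mismatch repair, PMS1 came after EXO1, an exonuclease that removes the faulty strand, at 61.2, 72.0 and 34.9 in the PD-L1 libraries and 0 in all IgG libraries (log2 difference 5.77). The log2 difference was 3.73 for the MutL homologue MLH3 and 3.65 for PMS2, of which PMS2 has near-identical pseudogenes and an uncertain score. The clamp loader subunits RFC1 (2.95) and RFC4 (2.47) were also listed. All 6 had their lowest PD-L1 score in repeat 3, as had 18 of the 22 pathway RNAs and 63.8% of the table.

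**Figure D3:**
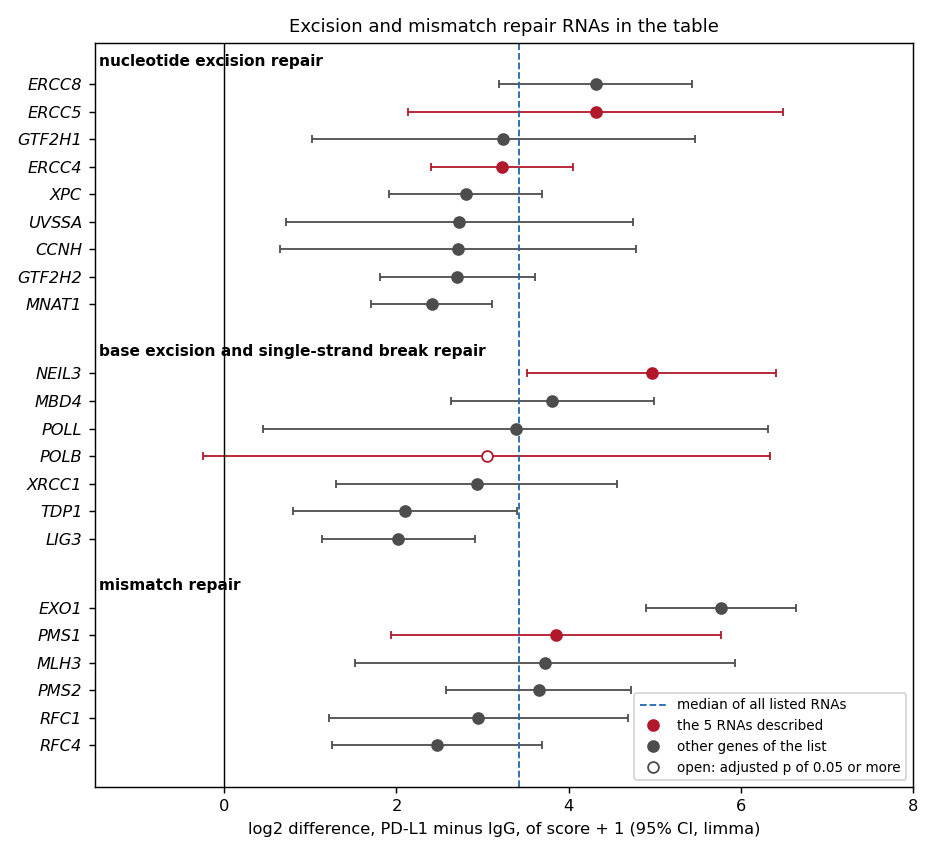
Log2 difference, PD-L1 minus IgG, of score + 1 with its 95% confidence interval from limma for the 22 listed genes of the 3 repair pathways, the 5 RNAs described in red. POLB is the open point with an interval that includes 0, and the dashed line marks the median of all listed RNAs (3.42).

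The scaling between libraries bears on all 5 RNAs. With all libraries brought to 1 common total of listed scores, 990 RNAs (31.4%) were higher and 60 lower, against 3078 and 0 as deposited, and the median log2 difference was 1.76 against 3.42. ERCC4 was at 2.52 (adjusted p = 0.00306 in limma), but its IgG scores of 0 stay 0 under any scaling, so its direction could not change and rescaling is no check on it. NEIL3 (3.47, adjusted p = 0.0799 in limma), ERCC5 (2.00, 0.388) and PMS1 (1.62, 0.422) did not pass, and POLB turned to -0.30 (0.852). The ratios of group means were then 5.62 for NEIL3, 1.74 for ERCC5, 1.47 for PMS1 and 1.18 for POLB. Among the 22 pathway RNAs, 6 were higher after rescaling, namely ERCC4, ERCC8, GTF2H2, MBD4, EXO1 and PMS2, and these were the 6 at 0 in all IgG libraries, to which the same limit applies. LIG3 (-1.25, adjusted p = 0.0492 in limma) and TDP1 (-1.40, 0.0413) were then lower. A table selected for enrichment holds no unenriched RNAs from which the right scaling could be read.

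**Figure D4:**
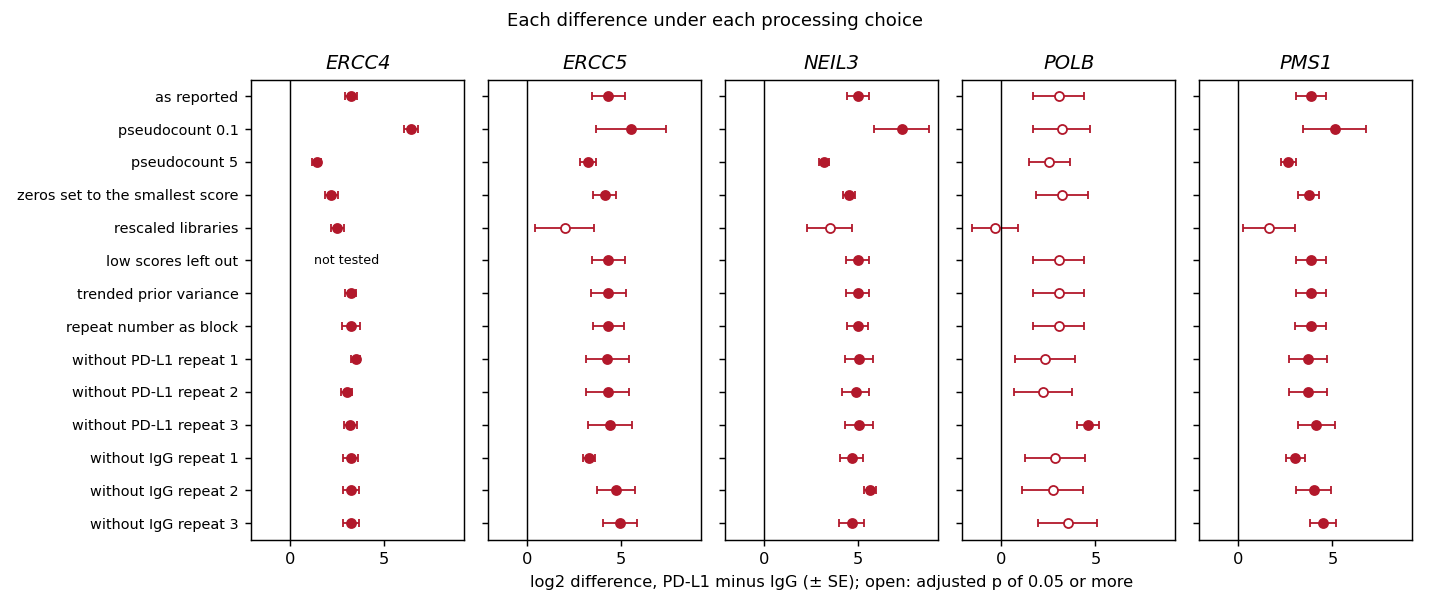
Log2 difference, PD-L1 minus IgG, with its SE for each of the 5 RNAs under each processing choice, with open points where the adjusted p was 0.05 or more. ERCC4, at 0 in all IgG libraries, could not turn negative under any scaling, while POLB passed only without PD-L1 repeat 3 and turned negative with rescaled libraries (-0.30).

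The RNAs with the most similar scores over the 6 libraries were found by the Euclidean distance in log2(score + 1). They were NRF1 (0.29) and RPS6KA5 (0.29) for ERCC4, SECISBP2L (0.51) and PVRL3 (0.58) for ERCC5, FBLN5 (0.31) and BRAP (0.37) for NEIL3, and INTS4 (0.47) and IQCG (0.57) for PMS1. POLB had more distant neighbours, CENPC (1.20) and ADGRA3 (1.45). CENPC scored 140.7, 158 and 9.03 in PD-L1 repeats 1 to 3, against 3.93, 2.06 and 5.91 with IgG. Its low score in repeat 3 follows from its choice by distance over all 6 libraries and is no separate observation. BIVM-ERCC5 ranked 35 by distance from ERCC5 (1.16). In the authors' deposited table of Gene Ontology terms, DNA repair had 157 listed genes of 489, with a p-value of 2.59e-14. Both were copied, and the set of genes they were compared with was not checked here.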

How the data were processed

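RNA from 3 PD-L1 and 3 IgG precipitates was sequenced as stranded, paired-end total RNA libraries, per the labels' protocols. TopHat2 2.0.14, HOMER 4.8.3 and build hg19 are named without roles in the submitters' processing notes. Per the file headers, the authors deposited a score per RNA and library, the sum of peak scores. Scaling, peak positions and read numbers are not stated in any source used here. The authors' deposited gene counts and p-values of Gene Ontology terms were copied. Scores were fitted as log2(score + 1) with limma 3.58.1 (R 4.3.3) over 3152 RNAs, without a filter, with Benjamini-Hochberg adjustment at 0.05. The fit was tested on simulated normal values, which lack the many zeros of the IgG libraries. That test is therefore no check on the p-values given here. Other values used Python 3.11.15 and scipy 1.17.1. Transcripts came from GENCODE 29 (GRCh38), the longest principal protein-coding transcript per symbol. Where none existed, the longest protein-coding transcript was taken, or else the longest of any type. Named were the 5 members, all listed genes of 3 pathway lists, with 1 gene of the lists not reported here and left out of their counts, and the 2 nearest RNAs per member. BIVM-ERCC5, which shares exons with ERCC5, was added after its values were seen. Members and lists were chosen with earlier results of these data known. Alternatives varied the pseudocount, zeros, scaling, filter, prior variance, replicate block and libraries.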

Additional observations from a re-analysis of the deposited data

How the results depend on the processing

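ERCC4, ERCC5, NEIL3 and PMS1 kept their direction and their side of the threshold in every alternative other than rescaled libraries, except that the filter on low scores left ERCC4 untested. Rescaling cannot move ERCC4's IgG scores of 0 and is no check on it. Rescaled libraries gave log2 differences of 2.00 for ERCC5, 3.47 for NEIL3 and 1.62 for PMS1, none passing, and -0.30 for POLB. POLB did not pass as reported or with rescaled libraries, and its call changed only without PD-L1 repeat 3 (4.59). With a library left out, differences ranged from 3.00 to 3.48 for ERCC4, 3.28 to 4.94 for ERCC5, 4.64 to 5.61 for NEIL3, 2.23 to 4.59 for POLB and 3.04 to 4.51 for PMS1. RNAs called higher ranged from 2730 to 3032 over the table, 6 to 9 in nucleotide excision repair and 5 to 7 in base excision repair, and were 6 throughout in mismatch repair. Rescaled libraries gave 990, 3, 1 and 2, against 3078, 9, 6 and 6 as reported. They also turned XPC (-0.58), UVSSA (-0.57), CCNH (-0.82), MNAT1 (-1.11), LIG3 (-1.25), TDP1 (-1.40), RFC1 (-0.57), RFC4 (-0.85) and ZEB1 (-0.996) negative. With a pseudocount of 0.1, GTF2H1 (4.42) and POLL (4.53) did not pass. The libraries' true scaling was not tested. Deviations from the group means showed correlations of -0.12, 0.071 and -0.079 between PD-L1 and IgG for repeats 1 to 3. These cannot decide whether repeat numbers pair the samples, because 44.3% to 68.2% of the scores in the IgG libraries were 0. With the replicate block the log2 differences of the 5 RNAs were equal, ERCC4 at 3.23 with an adjusted p of 0.00271 in limma, POLB at 3.05 with 0.0755, and 3091 RNAs were higher. Sequencing depth is unknown, so no counting error could be given. The smallest score above 0 differed by library, from 1.81 in PD-L1 repeat 2 to 3.72 in PD-L1 repeat 3, and whether a cutoff applied was not tested.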
